A study of Danio rerio with 24 samples.

Results

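The transcript of gbgt1l4 (ENSDARG00000068503), a glycosyltransferase gene, was followed through 24 single zebrafish eggs. It was present in every egg, and it was high in all eggs of mothers 2 and 4, at least 5.83 times lower in all eggs of mother 1, and lower again in all eggs of mothers 3 and 5. The gene was selected because its Cy3 signal in these eggs showed one of the widest gaps between clutches, so the Cy3 levels of gbgt1l4 itself are a description and were not tested. It is 1 gene with 1 probe (MAD_Dr_004_172645), out of 88754 probes in the main design set of the array. The parts of the study's annotation tables available here pair 3835 probes with a gene. Those tables place the gene on chromosome 5, from 23264582 to 23301587, in the Zv9 genome build named in the methods. They do not say whether the probe lies in an exon or a UTR, and the probe's sequence was not used here.

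The series asked how much maternal mRNA differs between single eggs of 1 clutch and between clutches. The eggs were mature and unfertilized and were pressed out of 5 female siblings of the wild-type line ABTL, each of which is called a mother here. There were 5 eggs for each of mothers 1 to 4 and 4 for mother 5, with no treatment in any group. Each mother gave 1 clutch, so mother and clutch cannot be told apart, and the eggs of 1 mother are replicates of that clutch only.

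The protein encoded by gbgt1l4 is named for its likeness to GBGT1, which in mammals is known as the Forssman glycolipid synthase, an enzyme that adds N-acetylgalactosamine to the sugar chain of a membrane glycolipid, globoside. GBGT1 belongs to the same enzyme family as the transferases of the ABO blood groups, which also add a last sugar to a chain in the Golgi. Glycosphingolipids are membrane lipids with such sugar chains on the outer face of the cell. An egg does not make new mRNA until the embryo activates its own genome, so the mRNA measured in a mature egg was laid down by the mother during oogenesis.

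The RNA of 1 egg was given poly(A) tails, depleted of ribosomal RNA and amplified. It was then labelled with Cy3 and hybridized on 1 array, together with a reference pool of egg RNA in Cy5. The paper regards the efficiency of tailing as likely a main source of variation between samples, which was not tested here. The values below are log2 of the median pixel intensity in Cy3, quantile normalized between the arrays, so that a difference of 1 is a change of 2-fold. Normalized signals are relative to the other transcripts of the same egg, so less gbgt1l4 mRNA and more of all other mRNA in an egg cannot be told apart. Of the main design set, 26796 transcripts were called expressed, and gbgt1l4 was called present on 24 of 24 arrays. Before normalization, the mean log2 Cy3 signal of the expressed transcripts lay between 7.63 and 9.79 on the arrays, a 4.45-fold range. Over all expressed transcripts, 23 of the 24 eggs had an egg of their own mother as the closest one. The exception was egg 1 of mother 1, which was closest to an egg of mother 4. Egg 5 of mother 3 had the largest root mean square distance to its own clutch, 0.46 on the log2 scale. Of the egg markers that could be paired, 6 of 6 were expressed, as were 95.7% of all paired probes. Among them were zp2.3 and zp3.2, which encode egg coat proteins, and npm2a and npm2b, which encode egg nucleoplasmins.

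In mother 2, the normalized log2 Cy3 signal of gbgt1l4 was 12.34, 12.33, 12.85, 12.18 and 12.29 in eggs 1 to 5. In mother 4, it was 12.47, 12.39, 12.10, 12.16 and 12.19. The eggs of these mothers overlapped, and the 10 of them together spanned 12.10 to 12.85. In mother 1, the signal was 9.55, 9.28, 9.13, 9.34 and 9.22, so its highest egg lay below the lowest egg of mothers 2 and 4 by 2.54, or 5.83-fold. In mother 5, the signal was 8.63, 8.80, 8.23 and 8.66. In mother 3, it was 8.62, 8.14, 8.72, 8.31 and 8.15. The eggs of mothers 5 and 3 overlapped, and all 9 lay below the lowest egg of mother 1, although by a gap of only 0.33, or 1.26-fold. The clutches therefore stood at 3 levels without overlap, with mothers 2 and 4 on top, mother 1 in the middle, and mothers 5 and 3 at the bottom. Of all expressed transcripts, 3.54% had 3 or more levels without overlap, and 18.2% had at least 2.

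**Figure D1:**
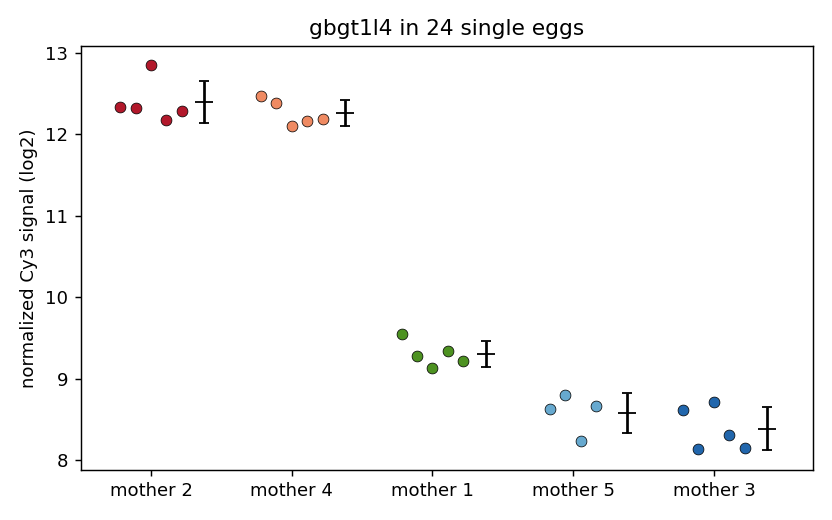
Normalized log2 Cy3 signal of gbgt1l4 (vertical axis) in each egg, grouped by mother in the order of the means, with eggs in the order of their numbers. Points are single eggs, and the bar beside each group is the mean with its SD (n = 5, and 4 for mother 5). The 10 eggs of mothers 2 and 4 lie between 12.10 and 12.85, and the other 14 lie between 8.14 and 9.55.

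Mother 2 had a clutch mean of 12.40 ± 0.26 and mother 4 one of 12.26 ± 0.16 (SD, n = 5 each). The mean of mother 1 was 9.30 ± 0.16 (SD, n = 5), that of mother 5 was 8.58 ± 0.24 (SD, n = 4) and that of mother 3 was 8.39 ± 0.27 (SD, n = 5). The upper pair thus stood far from the rest. Mother 2 was 16.1 times above mother 3, 14.1 times above mother 5 and 8.55 times above mother 1. Mother 4 was 14.7 times above mother 3, 12.8 times above mother 5 and 7.77 times above mother 1. The step from the upper to the middle level thus made up most of the range. The middle level differed far less from the bottom: mother 1 was 1.89 times above mother 3 and 1.65 times above mother 5. Neighbours in the order that did not differ beyond the spread of their eggs were mother 2 with mother 4, 0.14 apart on the log2 scale, and mother 5 with mother 3, 0.19 apart. Without egg 5 of mother 3, the difference between mothers 2 and 3 was 15.5-fold. Without egg 1 of mother 1, mother 4 was 8.11 times above mother 1.

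Within a clutch, the eggs were close to each other. The highest egg was above the lowest by 1.59-fold in the clutch of mother 2, by 1.30-fold for mother 4, by 1.34-fold for mother 1, by 1.48-fold for mother 5 and by 1.50-fold for mother 3. The widest of these clutch ranges, 0.67 on the log2 scale, was near the median of the widest clutch range over all expressed transcripts, 0.62. By contrast, the range of the mother means was 4.01 for gbgt1l4 against a median of 0.45 over the expressed transcripts, and 31 transcripts (0.116%), gbgt1l4 included, had a range at least as wide. The share of the variance over the 24 eggs that lay between mothers was 98.8% for gbgt1l4, against a median of 49.2%. These values rest on the signal by which the gene was chosen and describe where it stood. In the order of the gap between levels, gbgt1l4 with 2.54 on the log2 scale stood between pxna with 2.77 and mrpl30 with 2.50, among transcripts with a gene symbol.

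The separation was visible before any normalization. In the eggs of mother 2, the raw Cy3 intensity was 4835, 2774, 20331, 1868 and 3211 in eggs 1 to 5. In the eggs of mother 4, it was 9534, 10072, 4920, 7656 and 10471.5. The raw intensity was at most 1434.5 in the eggs of mother 1, at most 416 in those of mother 5 and at most 1022 in those of mother 3, so no egg of these mothers reached the lowest egg of mothers 2 and 4. The raw intensity followed the brightness of the array, and the mother 1 egg with 1434.5 lay on the brightest array of its clutch. Raw signals of mothers 1, 3 and 5 overlapped, and their order is read from the normalized signal only. All 24 spots were well above background and none was saturated. The raw signal was between 34 and 323 times the local background in mothers 2 and 4, between 3.97 and 25.6 times in mother 1, and between 2.38 and 15.3 times in mothers 5 and 3. The lowest of these values belonged to egg 5 of mother 3.

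The deviation of an egg from the mean of its clutch moved with the deviation of its array's mean signal from the clutch average of such means. The Pearson correlation between both was 0.59 over the 24 eggs, and egg 3 of mother 2, the highest egg of all, lay on the array with the highest mean signal. Between the normalized signal itself and the array mean, the correlation over all eggs was 0.205. The part of array brightness in the spread within clutches was not tested. As the arrays of 1 clutch share a mother, these correlations are descriptions.

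The Cy5 channel of the same spots held the same reference on every array, and its signal was not used to choose the gene. It lay between 11.39 and 12.27 on the normalized log2 scale, with a median of 11.81. Arrays of all mothers overlapped in Cy5. The mean was highest on the arrays of mother 1, 11.85 ± 0.23 (SD, n = 5), and lowest on those of mother 4, 11.71 ± 0.18 (SD, n = 5), a difference of 0.14. When the 24 arrays were assigned to mothers at random 100000 times, the permutation test of the F statistic gave p = 0.902. The moderated F-test of limma over all expressed transcripts gave an adjusted p of 1 for this probe, and called 0 of 26796 transcripts in Cy5 (0%), with 194 (0.724%) at an unadjusted p under 0.05. The latter share is below the 0.05 that equal groups give on average, so these tests may miss a difference. The correlation between Cy3 and Cy5 at the spot was -0.0628 over the 24 arrays.

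**Figure D2:**
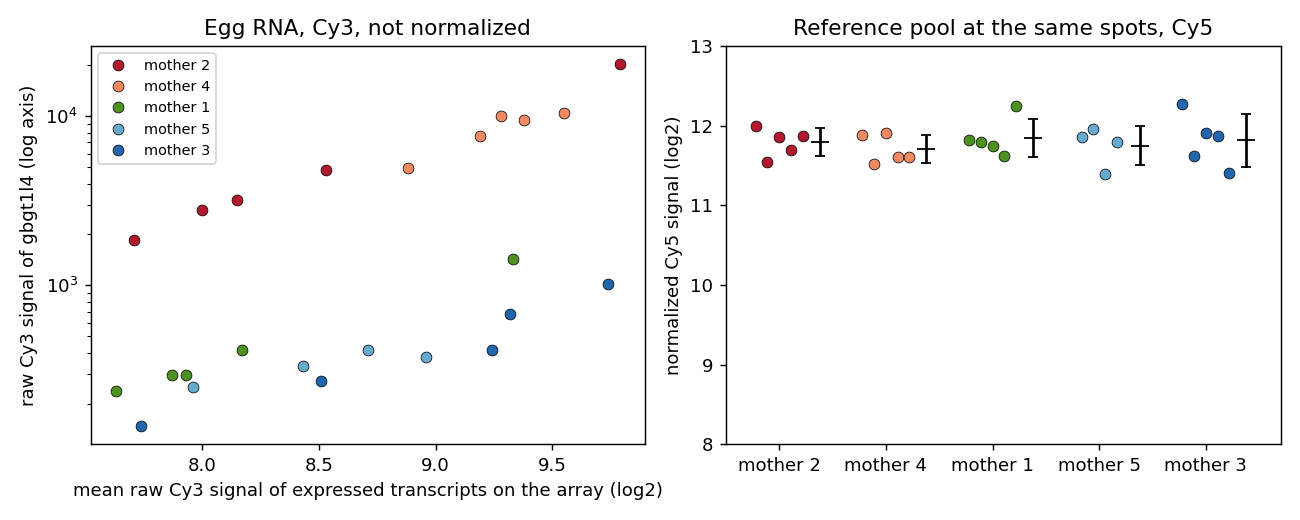
Left, raw Cy3 signal of gbgt1l4 (log axis) against the mean raw log2 Cy3 signal of the expressed transcripts on the same array, 1 point per egg, coloured by mother. Right, normalized log2 Cy5 signal of the reference at the same spots, grouped by mother, with the mean and SD beside the points. At any array brightness the eggs of mothers 2 and 4 lie above the others in Cy3, whereas Cy5 stays between 11.39 and 12.27 in all groups.

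Set against the reference within each array, the levels were the same. The log2 ratio of Cy3 over Cy5 after loess normalization averaged 0.49 ± 0.19 in mother 2 and 0.39 ± 0.21 in mother 4 (SD, n = 5 each). The average of mother 1 was -2.71 ± 0.24 (SD, n = 5), that of mother 5 was -3.37 ± 0.13 (SD, n = 4) and that of mother 3 was -3.79 ± 0.36 (SD, n = 5). The ratio was above 0 in all eggs of mothers 2 and 4 and below 0 in all others. As eggs were always in Cy3 and the pool in Cy5, a dye effect of the probe and a difference from the pool cannot be told apart, so the ratios are read between mothers only. The ratio lay between 0.07 and 0.74 in mothers 2 and 4, between -3.03 and -2.50 in mother 1, and between -4.09 and -3.18 in mothers 5 and 3. Again 3 levels did not overlap, and mother 2 was 19.4 times above mother 3. Which mothers contributed eggs to the pool is not given in the sources used here.

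The arrays were printed on 6 slides, each holding eggs of several mothers. Within every slide, the eggs of mothers 2 and 4 averaged 3.11 to 3.95 on the log2 scale above those of mothers 1, 3 and 5, against 3.56 over all slides. Levels were set from this same normalized signal. The 29 pairs of eggs on 1 slide whose mothers stood at different levels were thus in the order of the levels by definition. In the raw signal, 25 of the 29 were in this order.

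No other transcript had exactly the same pattern of levels. An exact match turns on small gaps, such as the 1.26-fold step below mother 1. For example, si:ch211-218c6.8 had the same order of mother means but other levels. Among the 26796 expressed transcripts, mothers 2 and 4 on top, mother 1 between and mothers 3 and 5 at the bottom was found for 1, gbgt1l4 itself, and the inverse for 0. A pattern with 2 levels and mothers 2 and 4 on top described 54 transcripts (0.202%), and 37 (0.138%) had the inverse. With a symbol, 20 of these 54 and 11 of these 37 could be named.

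The named genes most like gbgt1l4 over the 24 eggs followed it mainly in the step between mothers 2 and 4 and the rest. Likeness was measured by Pearson's r with the normalized signal, as a description, since the eggs of 1 clutch are not independent. Of the other 26795 expressed transcripts, 6 had an r over 0.95, of which 3 have a symbol, and 22 had an r under -0.9. The highest was that of si:ch211-218c6.8, a gene on chromosome 18 with no descriptive name, at 0.982. Its eggs averaged 8.50 ± 0.10 in mother 2 and 8.21 ± 0.08 in mother 4 (SD, n = 5 each), and between 6.22 ± 0.06 (SD, n = 5, mother 3) and 6.77 ± 0.07 (SD, n = 5, mother 1) in the others. Mother 2 was at least 4.24-fold higher than mother 3, where no egg was well above background. Such a bound sets the mean of the higher clutch against the lowest signal that was well above background on each array, or the signal of the probe itself where that was higher. The next was nbas, whose product acts in transport from the Golgi back to the endoplasmic reticulum, with an r of 0.957 and mother 2 at least 3.83-fold higher than mother 5. For baxb, a gene of the Bax family of cell death effectors, r was 0.956 and mother 2 was 4.23 times above mother 5, with 4 of 4 eggs of mother 5 well above background. Mothers 2 and 4 stood apart from all others for baxb, without a middle level. The other genes were spata2l, with an r of 0.947, and zgc:194125, with an r of 0.946. For both, 1 egg of the lowest mother was well above background, and no fold is given.

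At the other end stood genes that were lowest in mothers 2 and 4. They were vwa9, a subunit of the Integrator complex that cleaves nascent RNA, with an r of -0.940, wwp2, a ubiquitin ligase, with -0.923, and si:dkey-222f2.1 with -0.917, followed by bcdin3d, an RNA methyltransferase, with -0.911 and cntn5, a cell adhesion protein of neurons, with -0.910. Their differences were small beside that of gbgt1l4. For vwa9 the clutch means were 9.62 in mother 3, 9.48 in mother 1 and 9.45 in mother 5, against 8.80 in mother 4 and 8.59 in mother 2, so that mother 3 was 2.04 times above mother 2. For wwp2, mother 5 was 2.04 times above mother 4. Their inverse relation depended on the scaling: with the arrays centred on their median instead of quantile normalized, r was 0.0802 for vwa9 and -0.0152 for wwp2.

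**Figure D3:**
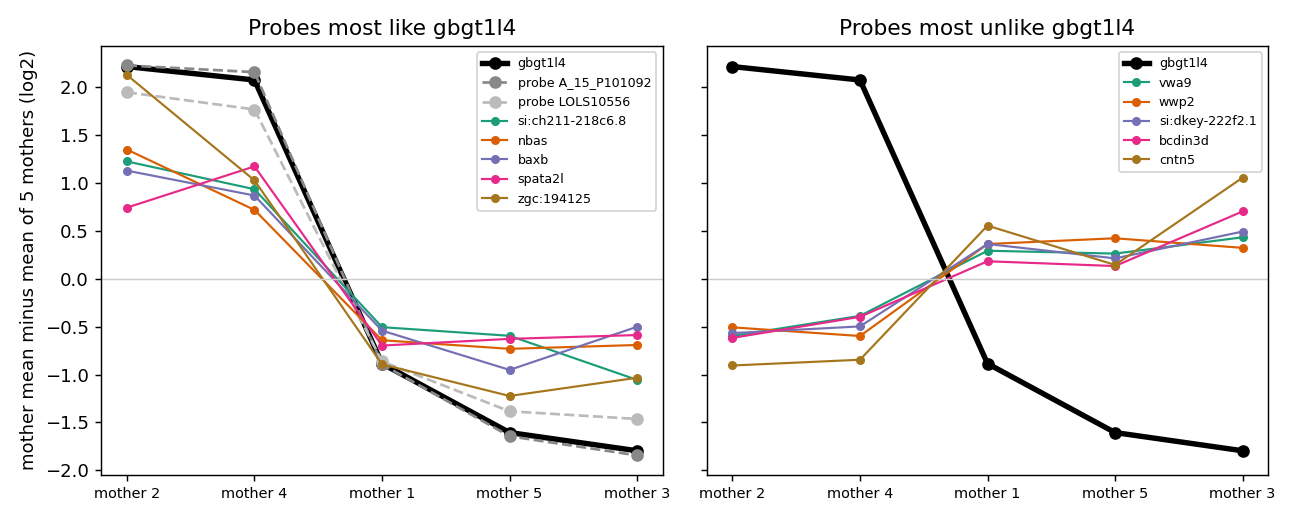
Mean normalized log2 Cy3 signal of each mother minus the mean over the 5 mothers (vertical axis), for gbgt1l4 (black), 2 probes outside the main design set (dashed) and the 5 named genes with the highest (left) and lowest (right) Pearson's r over 24 eggs. The values are differences within a probe, and several genes were not well above background in their lowest mothers. The dashed line of probe A_15_P101092 runs along that of gbgt1l4, and the named genes span less.

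A pair of probes outside the main design set followed gbgt1l4 more closely than any of these. The array carries 87220 such probes, and the tables used here pair them with no gene, so whether they belong to gbgt1l4 or to a relative of it was not determined. They were singled out after their values were seen, and were quantile normalized among themselves. The probe A_15_P101092 had an r of 0.999 with gbgt1l4 over the 24 eggs and was well above background on 24 arrays. Its signal was 12.75 ± 0.34 in mother 2 and 12.68 ± 0.16 in mother 4 (SD, n = 5 each). Mother 1 had 9.63 ± 0.20 (SD, n = 5), mother 5 had 8.88 ± 0.23 (SD, n = 4) and mother 3 had 8.68 ± 0.25 (SD, n = 5). The same 3 levels were apart without overlap, and mother 2 was 16.8 times above mother 3. The deviations of single eggs from their clutch means also went together, with a correlation of 0.917. The probe LOLS10556 had an r of 0.994, the same 3 levels and a 10.6-fold difference between mothers 2 and 3, and its deviations within clutches correlated at 0.646. The next probe outside the set reached an r of 0.970 and had 2 levels only.

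In the GRCz12tu assembly of RefSeq, whose gene order was used here for names only, gbgt1l4 lies in a cluster of relatives. It holds 8 genes named gbgt1l on chromosome 5 in the order gbgt1l1, gbgt1l9, gbgt1l2, gbgt1l8, gbgt1l4, gbgt1l3, gbgt1l6 and gbgt1l5. Of these, 5 follow each other with no other protein-coding gene between them, and gbgt1l5 lies 41 protein-coding genes away from gbgt1l4. The parts of the study's tables available here pair a probe with 1 of the 8, gbgt1l4. Whether the array holds probes for the others was not determined. For the gbgt1l4 probe, 3 further transcripts that it matches are listed, under identifiers not tied to a gene symbol here. A share of the signal from another member of the cluster therefore cannot be separated, and levels of the other members were not analysed here.

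None of the paired genes around gbgt1l4 had its 3 levels, as no other expressed transcript had them. Within 2 Mb of its start, 17 paired genes were expressed, and 15 of them (88.2%) differed between mothers in limma's moderated F-test with Benjamini-Hochberg adjustment, where 61.6% of all expressed transcripts did. The study's tables were available here in part only, and what is said of a listing refers to these parts. Of the 17, 10 are in the available part of the table of expressed genes, and 8 of these 10 differed (80%). The share was 65.8% over expressed transcripts paired with a gene and not listed only for distinct levels. The other 7 of the 17 are listed here only in the table of genes with distinct levels, which the paper drew from its expressed genes. All of them differed, as that table was chosen on these eggs, so the shares of 88.2% and 61.6% are not comparable. With the arrays centred on their median, 3 of the 17 (17.6%) differed, against 12.3% of all expressed transcripts. The 17 still hold the 7 chosen for distinct levels, and the share without them was not computed under centring.

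The nearest paired genes lay 250 kb before and 241.3 kb after its start. After the gene, rps6ka3a, a ribosomal S6 kinase, had the widest difference of the 17. Mothers 3, 1 and 5 had means of 9.47, 9.25 and 9.15, against 8.50 in mother 4 and 7.50 in mother 2, so that mother 3 was 3.90 times above mother 2. It was one of the 7 genes listed for their distinct levels in these eggs, so its difference is a description. It was low where gbgt1l4 was high, with an r of -0.858 over the 24 eggs. Next to it in this respect stood a pair of genes listed for the same reason, eif4a1b, an RNA helicase of translation initiation, with an r of -0.801 and mother 3 at 1.73 times mother 2, and znf703, a transcriptional repressor, with -0.718. Before the gene, acsl4b, a synthetase of long-chain acyl-CoA, had an r of -0.113.

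The gene with the most similar course was mrpl41, a protein of the mitochondrial ribosome, 1304.5 kb away. Mothers 2 and 4 had means of 11.14 and 11.13, against 10.55 in mother 1, 10.59 in mother 5 and 10.49 in mother 3, but the clutch ranges were not apart. Its r was 0.850 and the fold between mothers 2 and 3 was 1.58 (limma, adjusted p = 5.22e-06). As mrpl41 was picked for its r with gbgt1l4, which differs between mothers, its p-value is no independent support. At the small end, atp6v0a2b, a subunit of the vacuolar proton pump, ranged over 1.19-fold and MTMR8, a phosphoinositide phosphatase relative, over 1.25-fold. Neither passed the test (limma, adjusted p = 0.271 and 0.251). Of the 10 neighbours in the table of expressed genes, mothers 2 and 4 were both below all others in 2, si:dkeyp-20g2.1 and tpcn1, and both above all others in 1, mrpl41. The shares over all expressed transcripts were 7.14% and 8.05%.

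**Figure D4:**
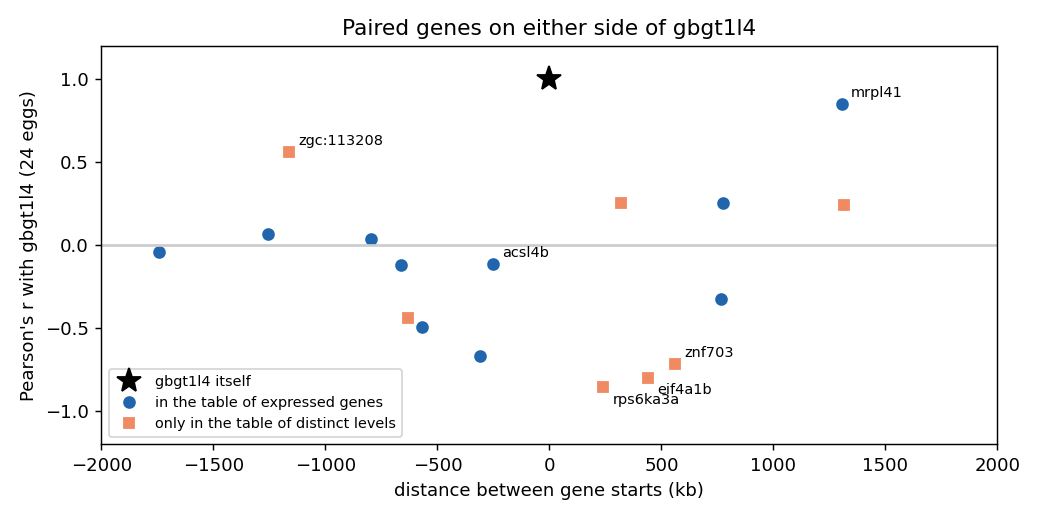
Pearson's r with gbgt1l4 over 24 eggs (vertical axis) for the 17 expressed genes paired within 2 Mb, by the distance between gene starts in kb. In the parts of the study's tables available here, circles are genes listed as expressed and squares are genes listed only for distinct levels. The star is gbgt1l4. The values run between -0.858 for rps6ka3a and 0.850 for mrpl41.

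Glycosylation needs many enzymes, and 5 lists of such genes were set beside gbgt1l4. They cover synthesis and breakdown of glycosphingolipids and other sphingolipids, assembly of N-glycans on dolichol, O-glycans with proteoglycan chains, and supply and transport of nucleotide sugars, the donors that glycosyltransferases use. A paired probe was expressed for 57 of the genes listed, and 48 of the 57 (84.2%) differed between mothers by the same test. In the parts of the study's tables available here, 26 of the 57 were listed only in the table of distinct levels. Of these, 26 of 26 differed, as they were chosen for this. Of the other 31, 22 differed (71.0%), against 65.8% of all expressed transcripts that were paired in the same way. Some of the 31, such as manea and galnt11, were paired only through the study's list of genes that differed between clutches. In full, that list holds nearly all genes that the study called expressed. Only part of it was available here, and neither share is of an unselected set. With the arrays centred on their median, 15 of the 57 (26.3%) differed, against 12.3% of all expressed transcripts. The 57 still hold the 26 chosen for distinct levels, and the share without them was not computed under centring, so these 2 shares are not comparable. Between the mothers with the highest and lowest mean, the median difference was 1.47-fold over the lists and 1.37-fold over all expressed transcripts. Over the 31 not listed for distinct levels alone, it was 1.35-fold, against 1.39-fold over transcripts paired in the same way. The members ranged over 1.16-fold to 4.20-fold, and none had the 3 levels of gbgt1l4, as no other expressed transcript had them. Means of mothers 2 and 4 above all others were found for 5 of the 57 (8.77%), against 8.05% of all expressed transcripts.

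Of the genes that build sphingolipids and their sugar chains, 8 were expressed and 7 differed. Of these 8, 5 were listed only in the table of distinct levels, and 2 of the other 3 differed, against the 65.8% given above. The widest difference was that of st3gal1, a sialyltransferase, whose mean was 10.81 ± 0.05 in mother 3 and 9.57 ± 0.10 in mother 1 (SD, n = 5 each), or 2.36-fold (limma, adjusted p = 8.34e-13). The table of distinct levels, chosen on these eggs, also lists st3gal1, so its p-value is no independent support. For b3gnt5b, which starts the lacto-series chain, mother 4 was 1.85 times above mother 5, in which 3 of 4 eggs exceeded background well. At the small end stood st3gal3a with 1.30-fold, and st6galnac5b, for which 2 of 5 eggs of the lowest mother were well above background and no fold is given. The 1 member that did not pass was st3gal5, the GM3 synthase, with 1.51-fold between mothers 5 and 2 (limma, adjusted p = 0.106). It was named after its values were seen.

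Among the genes for breakdown, 6 of 6 differed, but 5 of the 6, all except smpd4, were listed only in the table of distinct levels and had to. The mean of glb1l, a relative of lysosomal beta-galactosidase, was 9.23 in mother 4 and 7.38 in mother 3, or 3.60-fold, as a description. Mother 4 was also highest for hexa, a subunit of lysosomal hexosaminidase, 2.41 times above mother 1. The small differences were those of smpdl3a with 1.33-fold and smpd4, a sphingomyelinase, with 1.30-fold. Mother 2 was near mother 4 for some of them only: for glb1l, mother 4 had 9.23 and mother 2 had 8.32, and for smpd5, mother 4 had 9.09 ± 0.33 and mother 2 had 8.86 ± 0.29 (SD, n = 5 each).

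All 17 genes of N-glycan assembly differed. Of these, 5 were listed only in the table of distinct levels, alg14, ddost and dpm1 among them, and the other 12 differed too, against 65.8% of transcripts paired in the same way. The widest were alg14, part of the enzyme for the second sugar of the dolichol chain, with 3.26-fold between mothers 2 and 5, and ddost, a subunit of oligosaccharyltransferase, with 3.06-fold between mothers 3 and 4. The narrowest were alg5 and man2a1, both with 1.18-fold. In this list stood the lowest r with gbgt1l4 of all lists, -0.865 for dpm1, which makes the mannose donor dolichol phosphate mannose. Mothers 3, 5 and 1 had means of 11.25, 10.90 and 10.35, mother 4 came next and mother 2 was lowest with 9.93, so that mother 3 was 2.50 times above mother 2. For dpm1 the order of the mothers was thus the reverse of that for gbgt1l4.

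Of the O-glycan and proteoglycan genes, 7 of 14 differed. Of these 14, 6 were listed only in the table of distinct levels, and 1 of the other 8 differed, against the 65.8% given above. It was b3galtlb, which the table of distinct levels also lists. The mean of b3gntl1 was 9.05 in mother 3 and 6.98 in mother 4, or 4.20-fold, and b3galtlb was at least 3.06-fold higher in mother 3 than in mother 1. The smallest ranges, 1.16-fold each, were those of extl3 and chpf2, which did not pass (limma, adjusted p = 0.177 and 0.316). The study's list of genes that differ between clutches, from its own F-test with another correction, holds both. Of the nucleotide sugar genes, 11 of 12 differed, and none by more than 1.67-fold. Of the 7 not listed for distinct levels alone, 6 differed, against the same 65.8%. The other 5 had to, as they were chosen for this. The widest range was reached by slc35a3b, a nucleotide sugar transporter, with mother 4 above mother 1, and by galt, an enzyme of galactose metabolism, with mother 1 above mother 4. The narrow end was ugp2b with 1.26-fold and uap1, which makes the N-acetylglucosamine donor, with 1.16-fold (limma, adjusted p = 0.148 for uap1). The highest r of all lists, 0.717, was that of slc35b1, a transporter with a low signal. Its clutch means ran between 6.73 in mother 5 and 7.17 in mother 4, and it was called present on 11 arrays.

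**Figure D5:**
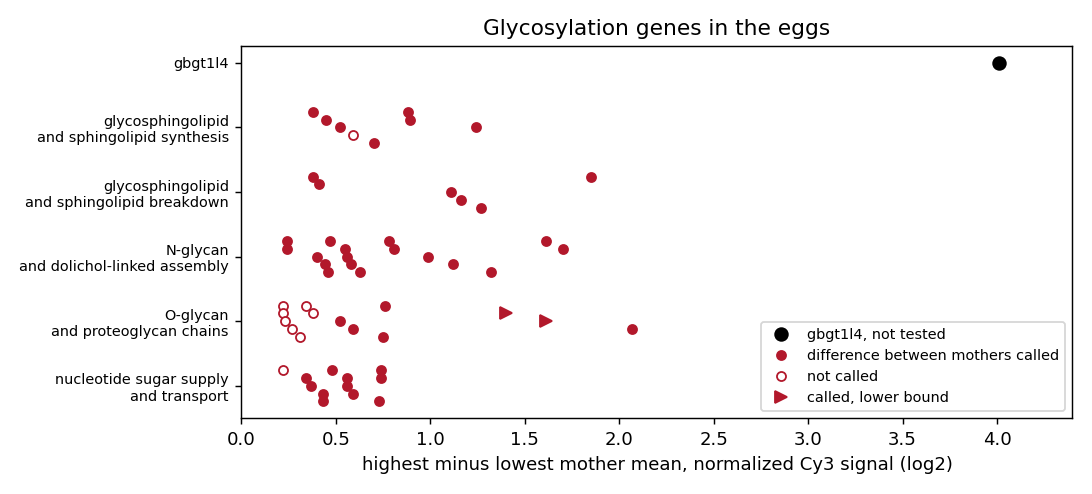
Difference between the highest and the lowest mother mean of the normalized log2 Cy3 signal (horizontal axis) for gbgt1l4 and for the expressed members of 5 glycosylation lists. Filled circles differed between mothers in limma's moderated F-test, open circles did not, triangles are lower bounds because no egg of the lowest mother was well above background, and the black point of gbgt1l4 was not tested. It lies at 4.01, and no plotted value of a list member is above 2.07.

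Markers of other cell types were looked up as well. Of the 14 markers of ovarian follicle cells listed, 3 had a paired probe and were expressed. For lhcgr, the receptor of luteinizing hormone, mother 2 was at least 2.40-fold higher than mother 4, where no egg was well above background, and its r with gbgt1l4 was 0.575. For hsd3b1, mother 4 was at least 3.11-fold higher than mother 3, again with no egg of the lower clutch well above background. Its r was 0.401. For cyp11a1, the first enzyme of steroid synthesis, mother 5 was 2.33 times above mother 2, and r was -0.311. As lhcgr and hsd3b1 were listed only in the table of distinct levels, their differences are descriptions. The 1 erythrocyte marker with a paired probe, hbae3, was not called expressed. It was called present on 2 arrays and was well above background on 5. The study's list of genes that differ between clutches holds it. Whether these signals come from the egg or from other cells, and the part of such cells in the gbgt1l4 signal, was not tested.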

How the data were processed

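Single eggs of 5 mothers were measured on 24 arrays of 2 colours. The authors deposited the scanner output of Agilent Feature Extraction 10.7.3.1, whose median signals are intensity values per spot, without background subtraction, and whose processed signals are intensity values that the software corrected for background and dye. Flags in the same deposited files, given as 0 or 1, mark spots that are well above background, saturated or non-uniform. The deposited table of the series gives the authors' own quantile normalized log2 values, which differed from those used here by a median of 0.00218 over all probes and were higher by 0.17 to 0.31 for gbgt1l4 in the 24 eggs. Median signals were used because the files hold no mean signals.

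Quantile normalization was applied to the log2 Cy3 signals of the main design set (88754 probes), without 60 non-uniform spots. Expression was called from the distribution of the variance over the arrays, as in the methods, where the probability of presence exceeded 0.95 on 4 arrays or more. Levels are groups of mothers whose egg ranges overlap. Differences between mothers were tested over all 26796 expressed transcripts with limma 3.58.1 in R 4.3.3 (moderated F, Benjamini-Hochberg adjustment at 0.05), and steps were checked on simulated data. Plots were made with Python 3.11.15 and matplotlib 3.10.9. The number of arrays and the signal over background limit the precision.

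The gene and the lists were chosen with earlier results of these data known. Named genes were gbgt1l4, the 5 highest and 5 lowest in r with it, its neighbours, and the widest and narrowest members of each list. Values of st3gal5, smpd5, dpm1 and slc35b1 were added after they were seen. Mother groups follow the deposited sample titles. The supplementary tables of expressed genes, of genes with distinct levels and of genes that differed between clutches give probe annotation and gene positions. They were available in part only, so a gene listed here only for distinct levels can also be among the study's expressed genes. The tables' columns of F-values, adjusted p-values, gap sizes and mother levels were not used. The alternatives tried are given in the closing section. Probe and protein sequences were not used here.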

Additional observations from a re-analysis of the deposited data

Results flagged for a closer look

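The eggs of each clutch were searched for 1 egg standing apart, in Cy3 and in Cy5, or 10 groups of eggs in all. Chance flags about 1 in 20 groups, and 1 egg was found. Egg 3 of mother 2 had a normalized log2 Cy3 signal of 12.85 for gbgt1l4, against 12.34 in the next egg and 12.18 in the lowest egg of that clutch. This egg also had the highest raw array mean, 9.79 on the log2 scale. Without it, mother 2 was 14.9 times above mother 3, and mother 2 was 1.02 times above mother 4.

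Signals that followed gbgt1l4 appeared in probes that no comparison of the eggs used, those outside the main design set. The probe A_15_P101092 correlated with gbgt1l4 with an r of 0.999, and the probe LOLS10556 with an r of 0.994, each over 24 eggs and each well above background on all 24 arrays. Neither is tied to a gene in the tables used here.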

How the results depend on the processing

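The order of the mothers and the 3 levels of gbgt1l4 were the same with processed signals set to a common 75th percentile, normexp with an offset of 50, the deposited values, the Cy3 over Cy5 ratio and non-uniform spots kept, and with scaling over the probes detected on all arrays, which was added after the data were seen. Centring on the array median gave 2 levels, with mothers 2 and 4 still above all others, by 1.43-fold. Centring leaves differences in array brightness, and the median of the expressed transcripts then moved by -0.44 in mother 1 up to 0.53 in mother 4. The log2 difference between mothers 2 and 3 was 4.38 for the processed signal, 4.51 when scaled over detected probes, 4.28 for the ratio and 3.48 for centring. Mother 1 minus mother 5 was 0.95 for the processed signal and 0.33 for centring, mother 5 minus mother 3 was 0.42 for the ratio and -0.24 for centring, and centring gave -0.82 for mother 2 minus mother 4 and 4.21 for mother 4 minus mother 1.

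Under centring 3291 transcripts (12.3%) differed, with 15 members of the lists and 3 neighbours. For probes present on all 24 arrays the count was 10209 of 16495, as fewer were tested. With q-values that use an estimated share of unchanged transcripts, it was 26136 of 26796. Shares of list members and neighbours were not computed with q-values. The shares of 61.6% and 65.8% used above thus hold for the Benjamini-Hochberg adjustment only. The median size of r with the 10 named genes, 0.943, was 0.928 for the processed signal, 0.911 for the ratio, 0.686 for centring and 0.786 as Spearman's rho. For vwa9 centring turned the sign, with 0.0802. The cause was not tested. Apart from the fits that leave out an egg, 49 of the 80 values of r for single genes stayed within the jackknife spread over the eggs, 30 moved by more and 1 turned sign. Slide or array position as a block, clutch medians, all probes of the main design set, the F-test without moderation and a window of 1 Mb moved the differences between mothers for gbgt1l4 by less than the spread between eggs and the counts by less than 1.5 times.

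With each egg left out, mother 2 minus mother 3 lay between 3.90 and 4.09, mother 2 minus mother 4 between 0.03 and 0.19, mother 4 minus mother 1 between 2.91 and 3.02, mother 1 minus mother 5 between 0.61 and 0.79 and mother 5 minus mother 3 between 0.12 and 0.31. Between 15650 and 17922 transcripts, 44 to 48 list members and 14 to 15 neighbours differed, the median r lay between 0.938 and 0.946, and the adjusted p in Cy5 was 1 throughout.

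Egg numbers did not pair the eggs: of 46 pairs with the same number, 22 had deviations correlated over 0.1, with a median of 0.0607. With egg number as a replicate block, mother 2 minus mother 3 was 4.01, and 16033 transcripts, 45 list members and 14 neighbours differed. The precision of the lower levels is limited by signals as low as 2.38 times the local background.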
